A study of Mus musculus with 12 samples.

Results

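Pyruvate and glutamate carbon enters mitochondria through a short set of transporters and dehydrogenases, is oxidised in the tricarboxylic acid cycle, and leaves as citrate, malate or aspartate through inner-membrane carriers. The 30 genes described here were chosen by name to cover these steps, and all 30 were found among the 12441 genes of the deposited tables. They comprise 7 genes of pyruvate entry, 11 cycle enzymes, 4 NADP-linked isocitrate dehydrogenases and malic enzymes, 7 genes of carriers, the malate-aspartate shuttle and citrate export, and 1 gene of glutamate entry. RNA came from mouse macrophages grown out of bone marrow over 6 days, with 10% conditioned medium of L929 cells as a source of macrophage colony-stimulating factor. There were 4 groups of 3 libraries: COQ6 D316Y homozygotes given 100 ng/mL lipopolysaccharide (LPS) for 24 h, wild type (WT) given the same, unstimulated COQ6 D316Y and unstimulated WT. COQ6 is a mitochondrial monooxygenase of coenzyme Q synthesis, and its substitution is a point change that expression tables do not show, so the genotype rests on the labels. The labels name no strain, age or sex of the mice and do not say whether each replicate was its own animal or culture; the p-values therefore measure only the spread between these libraries, which may be technical. The culture is a bulk population, in which fewer cells of a type and less RNA per cell cannot be told apart.

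Pyruvate crosses the inner mitochondrial membrane through the carrier made of Mpc1 and Mpc2 and is converted to acetyl-CoA by the pyruvate dehydrogenase complex or to oxaloacetate by pyruvate carboxylase. Citrate synthase starts the cycle, and citrate that leaves through the carrier Slc25a1 is split in the cytosol by Acly into acetyl-CoA for lipid synthesis and protein acetylation. Macrophages activated by LPS are known to accumulate citrate, succinate and the aconitate product itaconate, and the expression of the cycle's genes is one of several levels at which this is controlled.

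Each library had 32.8 to 47.2 M reads over the genes listed, and the 30 genes together took between 0.230% and 0.329% of them. The unstimulated replicate 1 libraries stood apart: mitochondrially encoded genes took 0.949% of the reads in D316Y replicate 1 and 0.449% in WT replicate 1, against 1.97% to 2.97% in the other unstimulated libraries. WT replicate 1 had the lowest share among the LPS libraries, at 0.658%. All 8 macrophage markers were present, with summed levels of 42843 to 60858 CPM. Lyz2 had the most reads of them, 1743300 to 2369900 with LPS and 1171800 to 1566900 without. The reads of single markers differed in both directions. Adgre1 had 118120 to 238330 reads with LPS and 55281 to 164560 without, and Cd68 19453 to 33894 with LPS and 75605 to 153520 without. The 8 LPS response genes summed to 2435 to 3002 CPM in D316Y with LPS, 2273 to 2631 in WT with LPS, 61.9 to 128 in unstimulated D316Y and 108.5 to 139 in unstimulated WT. Of 10 neutrophil markers 5 had values and summed to 36.9 to 54.4 CPM with LPS and 14.8 to 40.3 without it, of 7 dendritic cell markers 4 had values, with sums of 11.8 to 19.5 with LPS and 4.30 to 6.66 without, and none of the 6 lymphocyte or 6 erythroid markers had a value. Of the dendritic cell markers Ccr7 had 429 to 708 reads with LPS and 32 to 96 without, and Cd209a 0 to 3 with LPS and 38 to 75 without. Of 5 osteoclast markers 4 had values and summed to 88.6 to 130.1 CPM with LPS and 45.5 to 152 without, and their reads differed in both directions: Acp5 had 2836 to 5138 reads with LPS and 293 to 555 without, Dcstamp 12 to 32 with LPS and 958 to 4734 without, Ocstamp 0 to 9 with LPS and 112 to 255 without, and Ctsk 223 to 485 with LPS and 563 to 943 without. Of 6 stromal markers 3 had values and summed to 2.80 to 5.43 CPM with LPS and 0.732 to 4.94 without. Their part in the results was not tested.

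With LPS on the deposited scale, 2 inner-membrane carriers and 1 pyruvate dehydrogenase subunit rose about 2-fold or more in both genotypes. Scaled to total reads, as described below, these log2 rises were 0.47 to 0.82 in D316Y and 0.48 to 0.62 in WT. The mitochondrial NADP-linked isocitrate dehydrogenase fell in both. Me1, with few reads, rose more on the deposited scale, and Mpc2, with weak calls, rose about as much. In D316Y, 9 of 30 genes rose, where 19.4% of all 11795 genes tested did, and 1 fell, where 19% of all genes did. In WT, 8 of 30 rose, where 18.1% of all 11663 genes tested did, and 2 fell, where 19% did. A gene is said to have risen or fallen where limma's moderated test, adjusted over all genes tested (Benjamini-Hochberg), gave p under 0.05. Levels are log2 CPM, a gene's reads with 0.5 read added relative to the effective library size of the deposited tables, so the change of a gene with few reads is understated. Me1, Slc25a10, Slc25a1, Mpc2, Dlat, Idh1, Mdh2 and Slc25a11 rose in both genotypes and Idh2 fell in both. By role, 3 of 7 carrier and shuttle genes, 2 of 7 of pyruvate entry and 1 of 11 cycle enzymes rose in each genotype, and of the 4 NADP-linked and malic enzymes 3 rose in D316Y and 2 in WT. Me2 rose in D316Y and Suclg2 fell in WT, each without passing in the other genotype, and 19 genes passed in neither. The LPS and unstimulated libraries did not overlap for 14 of the 30 genes in D316Y, where 52.8% of all genes tested had no overlap, and for 13 in WT, where 46.8% had none, so a lack of overlap is common in these comparisons. The median log2 difference over the 30 genes was 0.16 in D316Y and 0.19 in WT, beside −0.03 and −0.01 over all genes, and its sign depends on the scaling of the libraries described below.

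**Figure D1:**
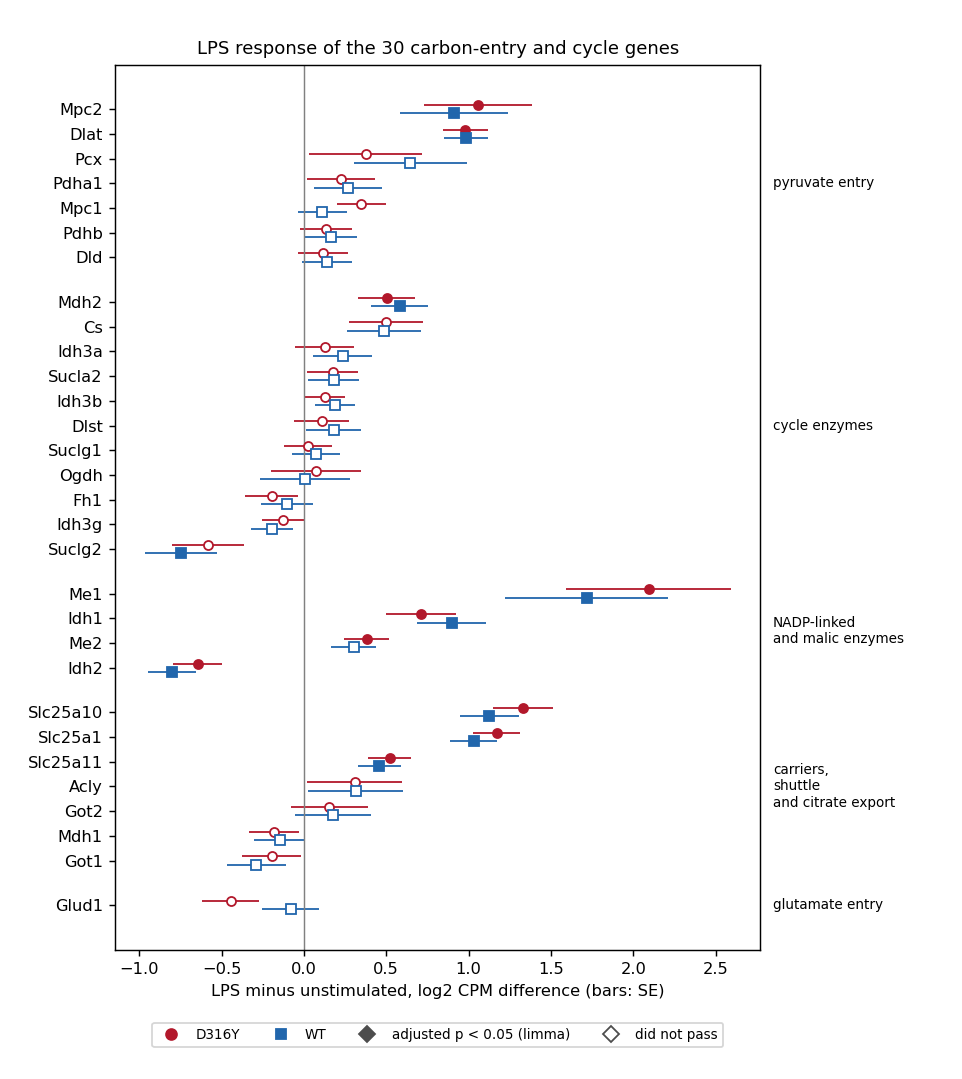
Difference in level between LPS and no LPS for each of the 30 genes (horizontal axis, log2 CPM), with D316Y as circles, WT as squares, bars of 1 SE and filled symbols for adjusted p under 0.05. Me1 lies farthest to the right, at 2.09 in D316Y and 1.72 in WT, and Idh2 farthest to the left, at −0.65 and −0.80, while most cycle enzymes lie near 0; on total reads all differences are about 0.51 lower.

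Among the carriers, Slc25a10, which exchanges dicarboxylates such as malate and succinate for phosphate, had 7.83, 7.92 and 7.90 log2 CPM in D316Y with LPS, against 6.76, 6.29 and 6.61 in unstimulated D316Y. In WT it had 8.10, 7.88 and 7.95 log2 CPM with LPS, against 7.28, 6.58 and 6.70 without. Every LPS library lay above every unstimulated one. The log2 difference was 1.33 in D316Y (SE 0.18, limma adjusted p 5.86e-05), a 2.52-fold rise, and 1.13 in WT (SE 0.18, adjusted p 0.000265), a 2.18-fold rise. Slc25a1, the citrate carrier, had 5.49, 5.80 and 5.49 log2 CPM in D316Y with LPS, against 4.42, 4.33 and 4.52 in unstimulated D316Y. The WT libraries had 5.89, 5.93 and 5.82 log2 CPM of Slc25a1 with LPS, against 5.10, 4.59 and 4.86 without. The groups did not overlap in either genotype, and the log2 difference was 1.17 in D316Y (SE 0.14, adjusted p 2.66e-05) and 1.03 in WT (SE 0.14, adjusted p 8.73e-05).

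Slc25a11, the carrier that exchanges malate for 2-oxoglutarate in the malate-aspartate shuttle, had 6.94, 6.96 and 6.89 log2 CPM in D316Y with LPS, against 6.44, 6.26 and 6.54 in unstimulated D316Y. It had 6.98, 7.18 and 7.09 log2 CPM in WT with LPS, against 6.82, 6.50 and 6.56 in unstimulated WT. It rose by 0.52 in D316Y (SE 0.13, adjusted p 0.00585) and by 0.46 in WT (SE 0.13, adjusted p 0.0131). The WT call was lost without LPS replicate 2 (adjusted p 0.05, at the threshold), unstimulated replicate 2 (0.0562) or unstimulated replicate 3 (0.0502), and on total reads the difference was 0.0046 in D316Y and −0.05 in WT. The shuttle's enzymes did not pass on the deposited scale. On total reads Mdh1 (−0.70 in D316Y and −0.66 in WT) and Got1 (−0.71 and −0.80) fell in both genotypes. Mdh1, the cytosolic malate dehydrogenase, differed by −0.18 in D316Y and −0.15 in WT, Got1, the cytosolic aspartate aminotransferase, by −0.20 and −0.29, and Got2, its mitochondrial partner, by 0.15 and 0.18 (adjusted p 0.235 to 0.638). Without both unstimulated replicate 1 libraries Got2 passed in D316Y (0.40, adjusted p 0.0464). Acly, the cytosolic enzyme that splits citrate, differed by 0.31 in both genotypes (SE 0.29, adjusted p 0.434 in D316Y and 0.429 in WT). Its levels within a group spread widely, with 6.58, 5.64 and 5.51 log2 CPM in unstimulated D316Y and 6.55, 5.90 and 5.77 in unstimulated WT, replicate 1 being the highest in both. Without both unstimulated replicate 1 libraries the Acly difference was 0.64 in D316Y (adjusted p 0.0157) and 0.55 in WT (adjusted p 0.0344). Annotated exons of a gene on the opposite strand cover 8.9% of the Slc25a11 exons (Rnf167), 6.6% of those of Slc25a10 (Gm11788), 9% of those of Got2 (Gm45760), 16.1% of those of Pdha1 (Map3k15) and 23.1% of those of Mpc1 (4930506C21Rik), and whether the reads were counted by strand is not stated.

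The start regions of Slc25a1, Slc25a10, Dlat and Idh2, whose calls held in both genotypes under every alternative run, are shown to let their sequences be compared. They are RefSeq promoters of build GRCm38.p6, from 250 bases before to 50 bases after the gene's start, written 5′ to 3′ along the gene's strand. Capitals mark every match to 10 motifs searched on both strands. The Slc25a1 promoter lies at chr16:17928170-17928469 (minus strand), Slc25a10 at chr11:120491587-120491886 (plus strand), Dlat at chr9:50659731-50660030 (minus strand) and Idh2 at chr7:80115301-80115600 (minus strand).
Slc25a1: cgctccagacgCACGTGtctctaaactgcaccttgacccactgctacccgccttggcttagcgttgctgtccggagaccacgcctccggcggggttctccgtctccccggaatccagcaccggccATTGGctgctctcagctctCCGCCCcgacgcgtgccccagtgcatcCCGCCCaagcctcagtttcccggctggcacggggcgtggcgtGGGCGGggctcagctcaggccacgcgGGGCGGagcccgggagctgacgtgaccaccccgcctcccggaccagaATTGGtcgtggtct
Slc25a10: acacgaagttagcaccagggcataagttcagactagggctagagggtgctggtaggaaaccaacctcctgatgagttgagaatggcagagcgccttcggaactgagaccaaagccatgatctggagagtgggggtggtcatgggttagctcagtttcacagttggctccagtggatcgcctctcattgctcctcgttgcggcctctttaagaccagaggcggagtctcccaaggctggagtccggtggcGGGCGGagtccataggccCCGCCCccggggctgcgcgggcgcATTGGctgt
Dlat: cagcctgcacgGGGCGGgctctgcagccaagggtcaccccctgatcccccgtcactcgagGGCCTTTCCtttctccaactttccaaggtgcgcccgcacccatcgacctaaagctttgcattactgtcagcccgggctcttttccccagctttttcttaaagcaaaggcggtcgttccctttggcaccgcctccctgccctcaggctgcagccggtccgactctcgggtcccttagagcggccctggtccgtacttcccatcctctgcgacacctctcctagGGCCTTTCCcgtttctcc
Idh2: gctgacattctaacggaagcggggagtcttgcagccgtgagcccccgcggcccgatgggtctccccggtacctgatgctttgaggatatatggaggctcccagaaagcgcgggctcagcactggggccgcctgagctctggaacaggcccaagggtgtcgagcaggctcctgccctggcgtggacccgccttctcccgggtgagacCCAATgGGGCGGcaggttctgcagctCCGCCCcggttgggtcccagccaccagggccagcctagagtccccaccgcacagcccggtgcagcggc
The table's start differs from the GENCODE M21 gene start by 3 bases for Slc25a10 and 42 for Idh2.

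The citrate carrier's promoter held 1 E-box (CACGTG), 2 CCAAT boxes (CCAAT) and 4 GC boxes (GGGCGG), the last being the core that Sp1-type factors bind. The promoter of Slc25a10 held 1 CCAAT box and 2 GC boxes, as did that of Idh2, so genes that rose and the gene that fell share these letters. In Idh2 the CCAAT box and a GC box are separated by a single base, and no matches overlapped each other. Dlat held 1 GC box and 2 matches to GGNNTTTCC, a loose search pattern for the NF-kB site in which N is any letter. Both matches read GGCCTTTCC, and whether NF-kB binds them was not tested. Over all 32851 promoters of the table the E-box letters occurred in 7.15%, CCAAT in 37.4%, GGGCGG in 35.7% and GGNNTTTCC in 5.82%. Of the 30 genes 28 had an entry, with 37 promoters in all; CCAAT occurred in 25 of these (67.6%) and GGGCGG in 26 (70.3%). The other motifs searched had no match in the 4 promoters: GCGCATG (NRF1, in 3.91% of all promoters), AAGGTCA (estrogen-related receptors, 4.72%), TGACNNNGC (antioxidant response element, 12.4%), TCACNCCAC (sterol regulatory element, 1.24%), TGACGTCA (cAMP response element, 1.79%) and GAAANNGAA (interferon-stimulated response element, 8.56%). A match is a description of the letters only, and the 4 genes are Slc25a1 (ENSMUSG00000003528), Slc25a10 (ENSMUSG00000025792), Dlat (ENSMUSG00000000168) and Idh2 (ENSMUSG00000030541), all protein-coding.

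In pyruvate entry, 2 of 7 genes rose in each genotype and the other 5 did not pass. Dlat, the acetyltransferase core of pyruvate dehydrogenase, had 4.69, 4.73 and 4.67 log2 CPM in D316Y with LPS, against 3.86, 3.67 and 3.63 in unstimulated D316Y. In WT its levels were 5.08, 4.71 and 4.84 log2 CPM with LPS and 4.05, 3.83 and 3.78 without. The groups were well separated, with a log2 difference of 0.98 in D316Y (SE 0.13, adjusted p 6.58e-05) and 0.99 in WT (SE 0.14, adjusted p 7.04e-05). The other subunits of the complex stayed closer to 0: Pdha1 and Pdhb, the alpha and beta subunits of its decarboxylase, differed by 0.22 and 0.14 in D316Y and by 0.27 and 0.16 in WT, and Dld, the dehydrogenase it shares with the 2-oxoglutarate complex, by 0.12 and 0.14. None of these passed (adjusted p 0.343 to 0.583). Without both unstimulated replicate 1 libraries, however, Pdha1 passed, at 0.44 in each genotype (adjusted p 0.0327 in D316Y and 0.0346 in WT).

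Mpc2, a subunit of the pyruvate carrier, had 6.87, 6.82 and 6.83 log2 CPM in D316Y with LPS, against 4.97, 5.97 and 6.40 in unstimulated D316Y. WT with LPS had 6.20, 7.19 and 6.77 log2 CPM of Mpc2, against 5.33, 6.13 and 5.98 in unstimulated WT. Both genotypes had no overlap between conditions, but the lowest WT library with LPS was only just above the highest without it. Mpc2 rose by 1.06 in D316Y (SE 0.33, adjusted p 0.0207) and by 0.91 in WT (SE 0.33, adjusted p 0.0434). These calls were weak: the D316Y one was lost without any 1 of its LPS libraries (adjusted p 0.0514 to 0.0570) or without unstimulated replicate 1, where the difference was 0.65 (adjusted p 0.0808). The WT one was lost without LPS replicate 2 (0.178) or 3 (0.105) and without unstimulated replicate 1 (0.140) or 3 (0.0631), and with eBayes without trend or robust (0.0655). Mpc1, the other subunit of the carrier, differed by 0.35 in D316Y (adjusted p 0.0849) and 0.11 in WT (adjusted p 0.600). Pcx, pyruvate carboxylase, was among the lowest of the 30 genes, with 69 to 253 reads per library across the 4 groups, and differed by 0.37 in D316Y (adjusted p 0.423) and 0.64 in WT (adjusted p 0.162; 0.0404 without WT LPS replicate 2).

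Of the 11 cycle enzymes 1 rose in each genotype, and 1 fell in WT. Mdh2, the mitochondrial malate dehydrogenase that closes the cycle, had 8.63, 8.59 and 8.56 log2 CPM in D316Y with LPS, against 8.47, 7.87 and 7.93 in unstimulated D316Y. Its WT levels were 8.91, 8.66 and 8.78 log2 CPM with LPS and 8.41, 8.0 and 8.20 without. The groups did not overlap, although unstimulated D316Y replicate 1 came close to the LPS libraries. Mdh2 rose by 0.50 in D316Y (SE 0.17, adjusted p 0.0341) and 0.58 in WT (SE 0.17, adjusted p 0.0178). The D316Y call was lost without each library of that genotype (adjusted p 0.0699 to 0.138) other than unstimulated replicate 1, and in a fit of the 6 D316Y libraries alone (0.0530). The WT call was lost without LPS replicate 1 (0.0611), LPS replicate 3 (0.0502) or unstimulated replicate 2 (0.0750).

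Suclg2, the GTP-forming subunit of succinyl-CoA synthetase, had 2.74, 3.01 and 2.76 log2 CPM in D316Y with LPS, against 3.70, 3.36 and 3.20 in unstimulated D316Y. WT had 3.45, 2.95 and 2.77 log2 CPM with LPS, against 4.21, 3.47 and 3.73 without. In both genotypes every LPS library was lower than every unstimulated one. The difference passed in WT, −0.75 (SE 0.22, adjusted p 0.0168), and missed the threshold in D316Y, −0.58 (SE 0.22, adjusted p 0.0515). Without WT LPS replicate 2, LPS replicate 3 or unstimulated replicate 1 the WT call was lost (adjusted p 0.0544, 0.0784 and 0.0690), and without unstimulated D316Y replicate 3 the D316Y value passed (0.0447). Its partners did not pass: Sucla2, the ATP-forming alternative subunit, differed by 0.17 in D316Y and 0.18 in WT, and Suclg1, the subunit common to both forms, by 0.02 and 0.07. Without both unstimulated replicate 1 libraries Sucla2 passed in D316Y (0.3255, adjusted p 0.03655).

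Cs, citrate synthase, had 7.23, 7.37 and 7.36 log2 CPM in D316Y with LPS, against 7.35, 6.61 and 6.50 in unstimulated D316Y. In WT it had 7.78, 7.19 and 7.35 log2 CPM with LPS, against 7.26, 6.74 and 6.85 without. The replicate 1 libraries without LPS overlapped the LPS libraries, and the differences of 0.50 in D316Y (SE 0.22, adjusted p 0.0966) and 0.49 in WT (SE 0.22, adjusted p 0.108) did not pass. Without unstimulated replicate 1 of the same genotype they were 0.77 (adjusted p 0.00672) in D316Y and 0.64 (adjusted p 0.0441) in WT. Of the NAD-linked isocitrate dehydrogenase, the catalytic Idh3a differed by 0.13 in D316Y and 0.23 in WT, Idh3b by 0.13 and 0.19, and Idh3g by −0.13 and −0.20. Ogdh and Dlst, the first subunits of the 2-oxoglutarate dehydrogenase complex, differed by 0.07 and 0.11 in D316Y and by 0.0039 and 0.18 in WT. Fh1, the fumarase, differed by −0.20 and −0.10. None of these 6 passed in either genotype on the deposited scale. Idh3a passed in D316Y without unstimulated replicate 1 (0.37, adjusted p 0.0412). On total reads Idh3g, Idh3b and Fh1 fell in both genotypes, and Dlst fell in D316Y.

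The NADP-linked enzymes divided. Idh1, the cytosolic isocitrate dehydrogenase, had 8.51, 8.67 and 8.69 log2 CPM in D316Y with LPS, against 8.39, 7.80 and 7.55 in unstimulated D316Y. WT had 9.09, 8.51 and 8.66 log2 CPM of Idh1 with LPS, against 8.05, 7.75 and 7.77 without. It rose by 0.71 in D316Y (SE 0.21, adjusted p 0.0166) and by 0.90 in WT (SE 0.21, adjusted p 0.00441), with no overlap between conditions. The D316Y call was lost without LPS replicate 2 or 3 or unstimulated replicate 2 or 3 (adjusted p 0.0541 to 0.0768). Idh2, its mitochondrial counterpart, had 4.88, 5.12 and 5.09 log2 CPM in D316Y with LPS, against 5.79, 5.51 and 5.71 in unstimulated D316Y. In WT the levels of Idh2 were 5.24, 5.09 and 5.31 log2 CPM with LPS and 6.31, 5.82 and 5.91 without. Here the order was opposite, every LPS library lying lower: Idh2 fell by 0.65 in D316Y (SE 0.15, adjusted p 0.00345) and by 0.80 in WT (SE 0.15, adjusted p 0.000785), to 0.639 and 0.574 of the unstimulated level.

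Me1, the cytosolic malic enzyme that makes NADPH and pyruvate from malate, had the largest difference of the 30 genes and the fewest reads. It drew 49, 72 and 74 reads in D316Y with LPS and 31, 8 and 40 in unstimulated D316Y. In WT it drew 117, 112 and 91 reads with LPS and 41, 39 and 33 without. The log2 difference was 2.09 in D316Y (SE 0.50, adjusted p 0.00448) and 1.72 in WT (SE 0.50, adjusted p 0.0148). The D316Y value rested partly on unstimulated replicate 2, the library with 8 reads: without it the difference was 1.36 (adjusted p 0.00642). Me2, the mitochondrial NAD-linked malic enzyme, had 4.42, 4.57 and 4.65 log2 CPM in D316Y with LPS, against 4.39, 4.13 and 3.97 in unstimulated D316Y, a rise of 0.38 (SE 0.14, adjusted p 0.0412). Me2 in WT had 4.70, 4.51 and 4.65 log2 CPM with LPS and 4.30, 4.25 and 4.40 without, and its difference of 0.30 (adjusted p 0.0996) did not pass. The D316Y call of Me2 was lost without LPS replicate 2 or 3 or unstimulated replicate 2 or 3 (adjusted p 0.105 to 0.159), with eBayes without trend or robust (0.0536) and in a fit of the 6 D316Y libraries alone (0.0731).

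Glutamate entry is represented by Glud1, the dehydrogenase that turns glutamate into 2-oxoglutarate. It had 4.22, 4.11 and 4.43 log2 CPM in D316Y with LPS, against 4.84, 4.70 and 4.55 in unstimulated D316Y. In WT its levels were 4.95, 4.91 and 4.42 log2 CPM with LPS and 5.12, 4.64 and 4.76 without. The D316Y groups did not overlap and the WT groups did. On the deposited scale neither difference passed: −0.44 in D316Y (SE 0.17, adjusted p 0.0601) and −0.08 in WT (SE 0.17, adjusted p 0.749). On total reads Glud1 fell in both genotypes.

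**Figure D2:**
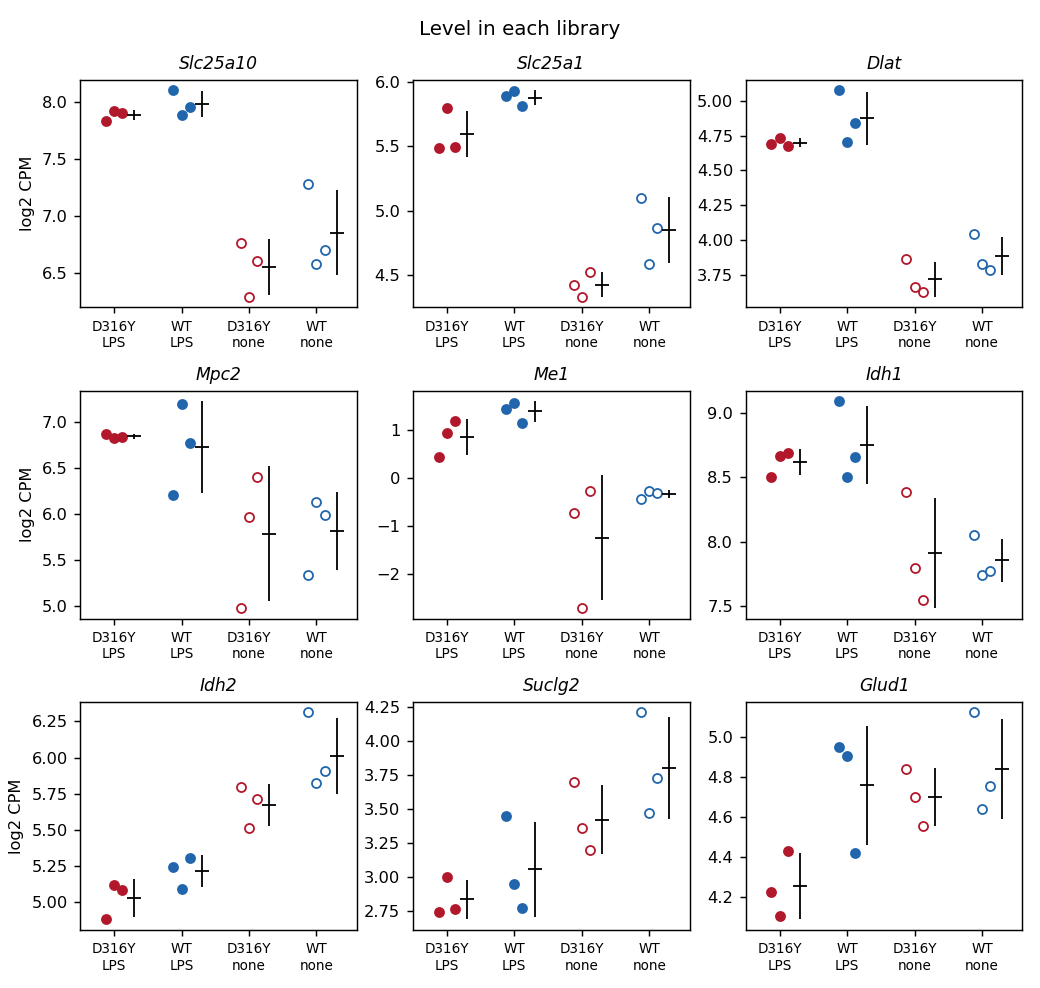
Level of 9 of the genes in each library (vertical axis, log2 CPM; each panel has its own range), with D316Y in red, WT in blue, LPS filled and unstimulated open; the bar beside each group is the mean with 1 SD, n = 3. Within each genotype Slc25a10, Slc25a1 and Dlat lie higher in every LPS library than in every unstimulated one and Idh2 and Suclg2 lower, while Mpc2 and Idh1 spread more within groups; in Glud1 the WT groups overlap.

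Ratios between partner genes within a library do not depend on how libraries were scaled. Of the 9 pairs examined, 8 separated the conditions without overlap in both genotypes. The pairs were not fixed in advance, most hold a gene called above, and no share over all gene pairs was computed. The 52.8% in D316Y and 46.8% in WT given above are of single genes, so they are no background for this count. Ratios are given as log2 ratios of CPM per kilobase of annotated exons, as a description with no test. Idh1 over Idh2 was 3.50 ± 0.04 in D316Y with LPS, against 2.14 ± 0.38 in unstimulated D316Y (SD, n = 3 each). In WT it was 3.44 ± 0.27 with LPS, against 1.74 ± 0.10 without, so the excess of the cytosolic over the mitochondrial transcript was 10.9-fold with LPS and 3.35-fold without. Sucla2 over Suclg2 was 3.04 ± 0.08 in D316Y with LPS and 2.28 ± 0.11 without, and 2.93 ± 0.25 in WT with LPS and 2.00 ± 0.14 without. In both isoform pairs the form that was the higher without LPS thus exceeded the other by more with LPS.

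For malate dehydrogenase the order of the pair turned on the per-kilobase scale only. Mdh2 over Mdh1 was 0.55 ± 0.10 in D316Y with LPS and −0.14 ± 0.10 without, and 0.65 ± 0.13 in WT with LPS and −0.08 ± 0.03 without. In log2 CPM, not divided by exon length, Mdh2 was the higher in every group. Without LPS it had 8.09 beside 7.75 for Mdh1 in D316Y, and 8.20 beside 7.81 in WT. The length is that of all annotated exons of a gene, so the order within a pair rests on it. Got2 over Got1 was 0.12 ± 0.14 in D316Y with LPS and −0.23 ± 0.15 without, and 0.34 ± 0.11 in WT with LPS and −0.13 ± 0.09 without. The mean sign changed here too per kilobase, though 1 D316Y library with LPS lay just under 0. In log2 CPM Got2 was likewise the higher in every group, without LPS at 6.49 beside 5.80 in D316Y and 6.63 beside 5.83 in WT. Mpc2 over Mpc1 was −1.0 ± 0.08 in D316Y with LPS and −1.71 ± 0.50 without, and −0.85 ± 0.31 in WT with LPS and −1.64 ± 0.26 without. Dlat over Pdha1 was −1.21 ± 0.11 in D316Y with LPS and −1.96 ± 0.24 without, and −1.14 ± 0.09 in WT with LPS and −1.86 ± 0.22 without. Slc25a1 over Cs and Me1 over Me2 were likewise higher with LPS, by 0.67 and 1.71 in D316Y and by 0.54 and 1.41 in WT. Idh3a over Idh3g separated the conditions in WT, −1.70 ± 0.01 with LPS and −2.13 ± 0.17 without, and overlapped in D316Y.

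**Figure D3:**
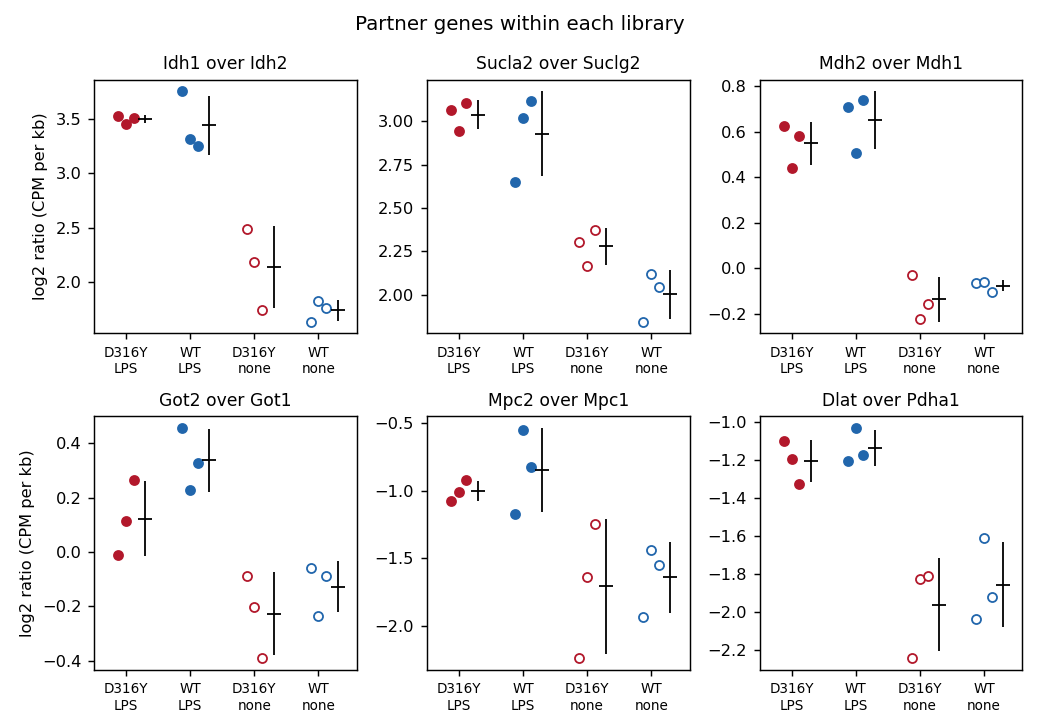
Log2 ratio of CPM per kilobase of 6 partner pairs in each library (vertical axis; each panel has its own range), with D316Y in red, WT in blue, LPS filled and unstimulated open; the bar beside each group is the mean with 1 SD, n = 3. In every panel the LPS libraries of a genotype lie above its unstimulated ones, and Mdh2 over Mdh1 crosses 0.

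Per kilobase, Idh1, Mdh2 and Mdh1 were the 3 highest of the 30 genes in each group, and Pcx and Me1 the 2 lowest. Idh1 averaged 7.15 log2 CPM per kilobase in D316Y with LPS and 7.28 in WT with LPS, against 6.44 in unstimulated D316Y and 6.39 in unstimulated WT. Slc25a1 ranked 10th in D316Y with LPS and 21st without, and 9th in WT with LPS and 16th without. Idh2 ranked 20th in D316Y with LPS and 10th without, and 18th in WT with LPS and 8th without. Slc25a1 thus stood above Idh2 with LPS and below it without LPS in both genotypes, while Cs stayed between rank 8 and rank 11.

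How many genes rose depends on the scaling of the libraries. On the deposited scale the median gene of the tables differed by −0.03 in D316Y and −0.01 in WT. On CPM of all reads in each library (total reads), the median of all genes shifted by −0.52 in D316Y and −0.51 in WT, and 15.3% and 13.6% of all calls were rises, against 50.6% and 48.8% on the deposited scale. On that scale 4 of the 30 genes rose in D316Y, where 8.98% of all genes did, and 12 fell, where 49.7% did. In WT 3 of the 30 rose, where 7.97% of all genes did, and 10 fell, where 50.4% did. With each library centred on its median, 9 rose and 1 fell in D316Y, beside 21.4% and 17.5% of all genes. In WT 8 rose and 2 fell with that centring, beside 19.4% and 17.5%. Slc25a10, Slc25a1 and Dlat rose in both genotypes and Idh2 fell in both under all 3 scalings. On total reads their log2 differences were 0.82, 0.65, 0.47 and −1.16 in D316Y (adjusted p 0.00132, 0.00118, 0.0116 and 2.42e-05) and 0.62, 0.52, 0.48 and −1.31 in WT (adjusted p 0.00749, 0.00503, 0.0103 and 8.93e-06). Me1 rose under all 3 scalings in D316Y alone, with an adjusted p of 0.0518 in WT on total reads. Mpc2, Idh1, Mdh2 and Slc25a11 did not pass on total reads in either genotype. Besides Idh2, the genes Suclg2, Glud1, Got1, Mdh1, Fh1, Idh3g, Idh3b and Suclg1 fell in both genotypes on total reads. Suclg2 differed by −1.10 in D316Y and −1.26 in WT, Glud1 by −0.96 and −0.59. Fh1 differed by −0.71 and −0.61, and Idh3g by −0.64 and −0.70 (limma adjusted p of these 4 genes 0.00942 or lower).

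**Figure D4:**
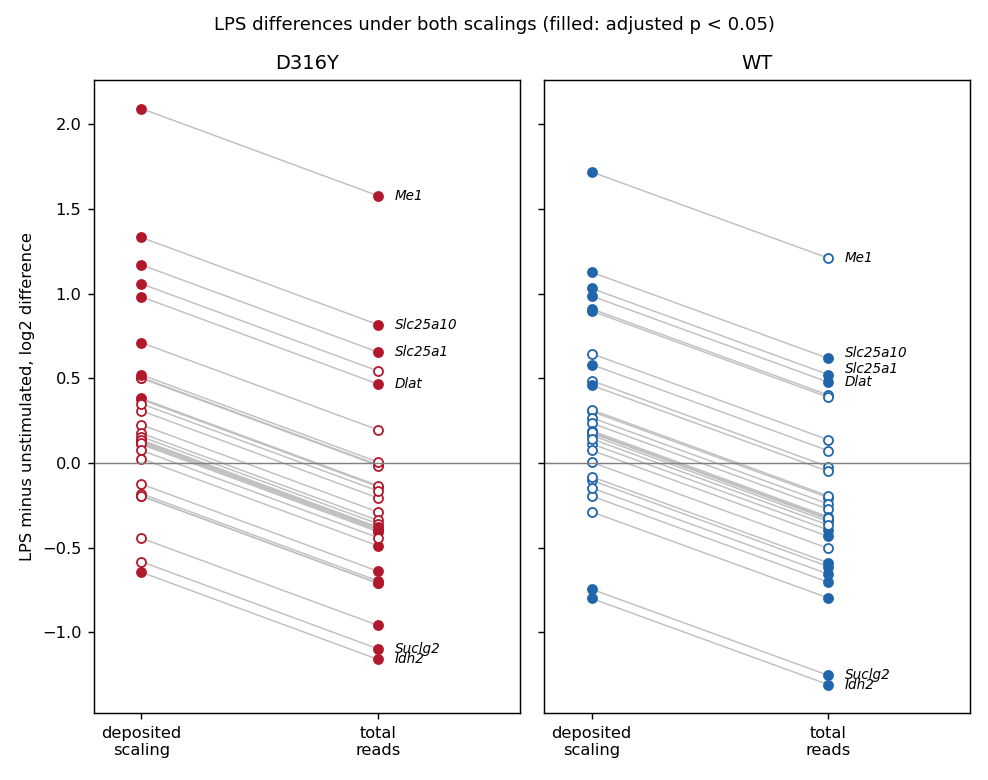
Log2 difference between LPS and no LPS of the 30 genes on the deposited scaling and on total reads, joined by a line per gene, in D316Y (left) and WT (right); filled points have adjusted p under 0.05. All lines drop by about 0.51, and Slc25a10, Slc25a1, Dlat and, in D316Y, Me1 remain filled above 0.

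The response had the same sign in D316Y and WT for all 30 genes, beside 85.3% of all genes, from libraries that the 2 comparisons do not share. The correlation of the log2 differences across the 30 genes was 0.968 (Pearson) and 0.95 (Spearman), beside 0.954 and 0.897 across all genes; genes are not independent replicates. The interaction, which is the LPS difference in D316Y minus that in WT, passed for none of the 30 genes, nor for any of 11918 genes tested (0%), with 251 genes at an unadjusted p under 0.05. None of the 30 was among those 251. The interaction with the smallest p was that of Glud1, −0.36 (SE 0.25, unadjusted p 0.165, limma adjusted p 0.999). That of Mpc1 was 0.24 (SE 0.21, unadjusted p 0.287) and that of Slc25a10 was 0.21 (SE 0.26, unadjusted p 0.436).

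Genes that flank these steps were read from 4 further lists. Of all genes tested, 19.4% rose and 19% fell in D316Y, and 18.1% rose and 19% fell in WT. Among 14 tested genes of pyruvate entry control, 6 rose in each genotype, and 1 fell in D316Y and 2 in WT. Slc16a3, a lactate exporter, rose by 3.76 in D316Y and 3.35 in WT, Ldha, the lactate dehydrogenase subunit that favours lactate formation, by 1.92 and 1.98, and Pdk3, a kinase that inhibits pyruvate dehydrogenase, by 1.27 and 1.02 (adjusted p 0.000301 or lower). Pdk1, another such kinase, rose by 0.63 and 0.55 (adjusted p 0.0144 in D316Y and 0.0284 in WT), as did the lactate dehydrogenase subunit Ldhb. Pdpr, the regulator of the phosphatase that reactivates the complex, fell in D316Y by 0.99 (adjusted p 0.010); Pdk2 and the phosphatase Pdp1 fell in WT by 0.64 and 0.63 (adjusted p 0.0121 and 0.0308). On total reads Slc16a3, Ldha and Pdk3 still rose in both genotypes and Pdk1 and Ldhb did not pass.

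Of 11 tested genes at cycle steps beyond the 30, 5 rose and 1 fell in each genotype. The shares of all genes were 19.4% rising and 19% falling in D316Y, and 18.1% and 19% in WT. Acod1, which makes itaconate from cis-aconitate, rose by 8.05 in D316Y and 7.59 in WT (SE 0.23 in each, adjusted p 2.48e-11 and 5.15e-11). Sdhb and Sdhd, subunits of succinate dehydrogenase, rose by 0.91 and 0.89 in D316Y and by 0.98 and 0.91 in WT (adjusted p 0.000123 or lower), and did so on total reads as well. Sdha, the flavoprotein of the same complex, differed by −0.03 in both genotypes and Sdhc by 0.15 and 0.24, without passing. The assembly factor Sdhaf2 rose by 0.74 and 0.61, but did not pass on total reads. Nnt, the proton-driven transhydrogenase that makes mitochondrial NADPH, fell by 0.44 in both (adjusted p 0.0450 and 0.0457). Idh2, another source of mitochondrial NADPH, also fell, but the supply of mitochondrial NADPH was not tested. The Nnt calls lay near the threshold, and their dependence on single libraries is not reported here.

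On the glutamine and glutamate side 2 genes rose and 3 fell in each genotype, of 12 tested in D316Y and 11 in WT. These counts are near the shares of all genes, 19.4% rising and 19% falling in D316Y and 18.1% and 19% in WT. Slc25a22, a mitochondrial glutamate carrier, rose by 1.48 in D316Y and 0.90 in WT, and Slc25a12, the aspartate-glutamate carrier aralar, by 1.22 and 1.08 (adjusted p 0.00230 or lower). Slc25a13, the other aspartate-glutamate carrier, fell by 1.75 and 1.80, and Slc1a5, a plasma membrane glutamine transporter, by 1.22 and 1.05 (adjusted p 8.08e-05 or lower). So the 2 aspartate-glutamate carriers moved in opposite directions, on total reads as well. Glul, glutamine synthetase, fell in D316Y by 0.81 (adjusted p 0.0158), and Slc38a2, another glutamine transporter, in WT by 0.55 (adjusted p 0.0381). Among 9 tested users of citrate and malate and other carbon carriers, 2 rose and 2 fell in D316Y, and 2 rose and 3 fell in WT, beside the same shares of all genes. Acss2, the cytosolic acetyl-CoA synthetase, rose by 1.94 and 1.80 (adjusted p 2.46e-05 and 5.43e-05), and Acss1, its mitochondrial relative, fell by 1.31 and 1.71 (adjusted p 0.000928 and 0.000127). Acaca, which makes malonyl-CoA, rose by 0.67 and 0.74 but not on total reads, and Pck2, the mitochondrial phosphoenolpyruvate carboxykinase, fell by 0.83 and 1.01.

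Between genotypes none of the 30 genes passed, with or without LPS. Without LPS, 29 were tested and 0 passed, where 1 of 11525 genes did (0.00868%); 1 of the 29 had an unadjusted p under 0.05, beside 2.92% of all genes. With the replicate number as a block, which pairs these libraries, 0 of the 29 and 6 of all genes passed. Me1 was left out of this test since its mean lay under 0 log2 CPM in both groups. With LPS, 0 of 30 passed, where 5 of 11306 genes did (0.0442%); 2 of the 30 had an unadjusted p under 0.05, beside 6.50% of all genes. Most values were slightly negative: 27 of 29 without LPS, with a median of −0.12 beside −0.02 for all genes, and 26 of 30 with LPS, with a median of −0.14 beside −0.0033. The difference was negative in both conditions for 25 of 30 genes, beside 33.9% of all genes, from libraries that do not overlap. The size depended on single libraries. With 1 library left out at a time, medians ran from −0.263 to 0.0006 without LPS and from −0.21 to −0.05 with LPS. The values nearest 0 were those without WT replicate 1 of the same condition. Genes are not independent replicates, so the counts by sign carry no test. Between libraries of the same number the mean difference over the 30 genes was −0.10, −0.17 and −0.19 without LPS. These means include Me1, which had 8 reads in unstimulated D316Y replicate 2. With LPS the values were −0.36, −0.01 and −0.06. Same-numbered LPS libraries did not deviate together, so that matching by number carries no pairing.

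Slc25a1 was the gene with the smallest p without LPS. It had 4.42, 4.33 and 4.52 log2 CPM in unstimulated D316Y, against 5.10, 4.59 and 4.86 in unstimulated WT, and the groups did not overlap. The difference was −0.42 (SE 0.17, unadjusted p 0.0341) but the limma adjusted p was 0.942, and 0.144 with the replicate number as a block. With LPS its levels were 5.49, 5.80 and 5.49 log2 CPM in D316Y and 5.89, 5.93 and 5.82 in WT, again without overlap, a difference of −0.28 (SE 0.13, unadjusted p 0.0433, adjusted p 0.737). Idh2 without LPS had 5.79, 5.51 and 5.71 log2 CPM in D316Y and 6.31, 5.82 and 5.91 in WT, a difference of −0.34 (SE 0.18, adjusted p 0.942, and 0.154 with the block). Suclg2 differed by −0.38 without LPS (SE 0.22, adjusted p 0.942, and 0.199 with the block), with overlapping groups. The groups did not overlap for 2 of the 29 genes without LPS, beside 8.13% of all genes, and for 6 of 30 with LPS, beside 12.5%.

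With LPS the smallest p was that of Glud1, with 4.22, 4.11 and 4.43 log2 CPM in D316Y and 4.95, 4.91 and 4.42 in WT. The groups overlapped through WT replicate 3, and the difference was −0.50 (SE 0.17, unadjusted p 0.0110, limma adjusted p 0.590). Me1 differed by −0.53 (SE 0.27, adjusted p 0.797) and Mpc1 by 0.27 (SE 0.13, adjusted p 0.774). Mpc1 was the one of these with a positive value, having 6.12, 6.01 and 5.93 log2 CPM in D316Y with LPS, against 5.55, 5.92 and 5.78 in WT with LPS, without overlap. In the authors' deposited table none of the 30 genes had an adjusted p under 0.05 either, the lowest being 0.236 without LPS and 0.309 with LPS. The smallest unadjusted p of the authors' test was 0.0184 without LPS (Idh3a) and 0.0174 with LPS (Mpc1). The limma fit used here gave these genes 0.757 and 0.0580. Me1 without LPS, not tested here, had a log2 fold change of −1.22 there (authors' unadjusted p 0.0218, adjusted p 0.244). The same deposited table gave negative fold changes for 27 and 26 of the 30. A difference between D316Y and WT in these genes was therefore not detectable at this number of libraries, which does not show that they are equal. In the 4 further lists no gene passed in either genotype comparison or the interaction.

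**Figure D5:**
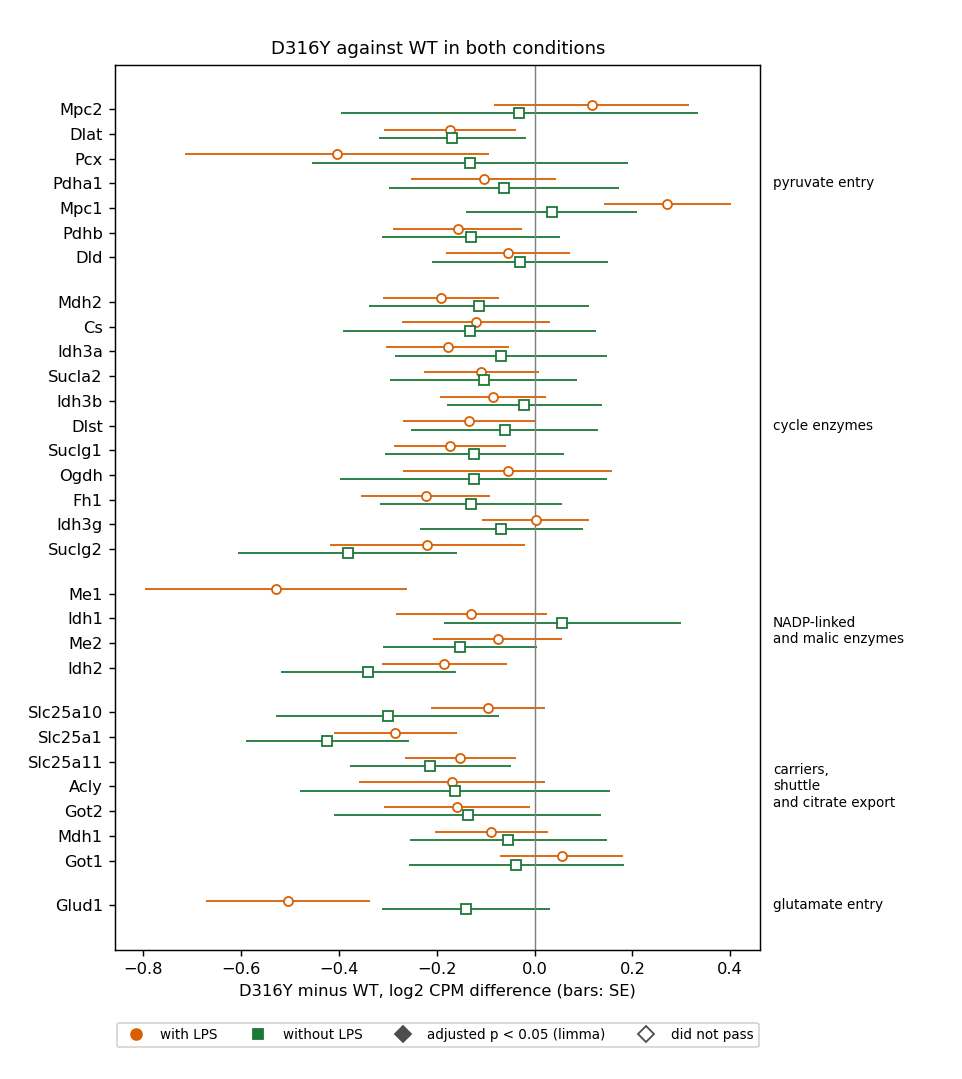
Difference in level between D316Y and WT for each of the 30 genes (horizontal axis, log2 CPM), with LPS as circles and without LPS as squares, bars of 1 SE; no symbol is filled, since none had an adjusted p under 0.05, and Me1 was not tested without LPS. Most points lie slightly left of 0, with medians of −0.14 with LPS and −0.12 without, and their bars mostly reach toward or across 0.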

How the data were processed

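RNA sequencing values of 12 mouse macrophage libraries in 4 groups of 3 were used as deposited. The authors deposited 2 tables of 12493 entries with the same log2 CPM values, and 52 repeated identifiers were taken once, leaving 12441 genes. The submitters' processing notes name limma, edgeR, featureCounts 1.4.6-p5 of Subread, STAR 2.5.1a and bcl2fastq, without their order, and the genome build is not given in the sources used here. Per the file headers, each table adds the authors' own test of D316Y against WT, as a log2 fold change with a p-value and an adjusted p-value. In every library 100% of deposited log2 values under 200 reads matched whole reads plus 0.5 within 0.01, which gave the reads per gene and the effective library sizes. These sizes are 32.6 to 43.1 M with LPS and 41.2 to 55.8 M without.

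All 12441 identifiers were found in GENCODE M21 (GRCm38), used for positions, exon lengths and overlaps; 15 symbols turned into dates were restored. Because the values are log2, tests used limma 3.58.1 in R 4.3.3 (eBayes with trend and robust, two-sided), for genes averaging 0 log2 CPM or more in a compared group, with Benjamini-Hochberg adjustment over all genes tested. Genotypes were compared within 6 libraries, and LPS and the interaction in 1 fit of 12. The procedure was tested on simulated data with independent noise for each gene and library. That simulation held no deviations shared across a library, such as those of replicate 1 here, so it does not cover them. Shares of reads carry 95% Wilson intervals of at most 0.00513 percentage points on either side, for counting error only. The members and gene lists were chosen with earlier results of these data known. All 30 genes are named; values in every library are given for up to 5 that rose and 5 that fell in both genotypes and for the 3 with the smallest p in each genotype comparison and the interaction, and per further list up to 2 genes that rose and 2 that fell in both genotypes. Library values of Slc25a11, Acly, Mdh2, Cs, Idh1 and Me2, and the other genes of the further lists, were added after their values were seen. Some genes of the further lists are counted but not reported here by name.

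Libraries of the same replicate number deviated together between the unstimulated genotypes (correlations over genes 0.606, 0.527 and 0.154), so the numbers were taken as pairing there. Values are from the fit without the block, with the blocked adjusted p beside those of the unstimulated genotypes; the other comparisons were not paired.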

Additional observations from a re-analysis of the deposited data

How the results depend on the processing

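The alternatives were no filter or a filter at 2 log2 CPM, centring each library, scaling to total reads, 2 reads as pseudocount, voom weights on recovered reads, eBayes without trend or robust, the replicate number as a block, other sets of libraries in the fit, leaving out both unstimulated replicate 1 libraries, and leaving out each library. Slc25a10, Slc25a1, Dlat and Idh2 kept their direction and passed in both genotypes under each of these. Scaling to total reads gave 4 rises, 12 falls and a median of −0.3506 with LPS in D316Y, and 3 rises, 10 falls and a median of −0.3233 in WT. Of all genes, 8.98% rose and 49.7% fell in D316Y on that scale, and 7.97% rose and 50.4% fell in WT. On that scale the value turned negative for 16 of 23 positive genes in D316Y and 15 of 23 in WT. Those of them that had risen before or fell on total reads were, in D316Y, Pdhb (−0.3801), Dld (−0.3986), Idh3b (−0.389), Dlst (−0.4064), Suclg1 (−0.4906), Mdh2 (−0.0115) and Me2 (−0.1347), and, in WT, Mpc1 (−0.3967), Idh3b (−0.3189), Suclg1 (−0.4347) and Slc25a11 (−0.0507). The shift of the median gene by about 0.51 is the difference between the 2 scalings. The deposited effective size lay below total reads in every library with LPS and above them in every one without. Which scaling is closer to RNA per cell was not tested. Without both unstimulated replicate 1 libraries 15 genes rose in D316Y, where 2639 of 11890 genes tested did, with a median of 0.3478. In D316Y 2 genes fell with the filter at 2 log2 CPM and 3 with only the 6 libraries of the genotype; the cause was not tested. The rises of Me2 and Mdh2 in D316Y did not pass with only those 6 libraries (adjusted p 0.0731 and 0.0530), nor those of Me2 in D316Y and Mpc2 in WT with eBayes without trend or robust (0.0536 and 0.0655).

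With the replicate number as a block, 3 genes fell in D316Y (Idh2, Suclg2 and Glud1, adjusted p 0.0225 for Suclg2 and 0.0415 for Glud1), and Cs rose in both genotypes (0.0310 in D316Y and 0.0363 in WT). Numbers were taken as pairing only where all 3 correlations of same-numbered libraries exceeded 0.1. These correlations were −0.164, −0.211 and −0.0658 between conditions in D316Y, 0.340, 0.163 and −0.0302 in WT, and −0.0959, 0.0567 and −0.0190 between the genotypes with LPS. The labels do not say what a number stands for, so pairing between conditions in WT is not settled. Where the numbers were taken as pairing, between the unstimulated genotypes, the block gave 0 passing genes as well, and it changed no other call.

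Leaving out 1 library at a time gave 5 to 10 rises, 1 to 2 falls and medians of 0.0893 to 0.3478 in D316Y, and 6 to 8 rises, 1 to 2 falls and medians of 0.126 to 0.2999 in WT. Rises in D316Y numbered 5 without LPS replicate 2 or without LPS replicate 3, and the median was 0.3478 without unstimulated replicate 1. Falls in D316Y numbered 2 without unstimulated replicate 3, and in WT 1 without LPS replicate 2, LPS replicate 3 or unstimulated replicate 1. Between genotypes 0 genes passed each time, with medians of −0.263 to 0.0006 without LPS and −0.2133 to −0.0517 with LPS. The interaction gave 0 passing genes, with medians of −0.1112 to 0.1361. With 3 libraries a group, small differences in these genes were not detectable, and counts of 8 to 41 reads limit Me1 without LPS.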

Other observations

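Replicate 1 held the highest value of its group for most of the 30 genes in 3 of the 4 groups. It was the highest for 24 genes in WT with LPS, beside 40.3% of all genes, for 25 in unstimulated D316Y, beside 43.6%, and for 25 in unstimulated WT, beside 47.4%. In D316Y with LPS it was the highest for 6 of the 30, beside 29.3% of all genes. The mean level over the 30 genes was 5.68, 5.78 and 5.79 log2 CPM in D316Y with LPS, 6.03, 5.80 and 5.85 in WT with LPS, 5.70, 5.29 and 5.35 in unstimulated D316Y and 5.80, 5.46 and 5.54 in unstimulated WT. In those 3 groups the replicate 1 library, with the highest mean, also had the lowest mitochondrial share of reads: 0.658% in WT with LPS, 0.949% in unstimulated D316Y and 0.449% in unstimulated WT.

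Both subunits of the pyruvate carrier ran against most of the other genes in these libraries. Mpc1 had 5.55 log2 CPM in WT LPS replicate 1, beside 5.92 and 5.78 in replicates 2 and 3, 5.40 in unstimulated D316Y replicate 1, beside 5.79 and 5.83, and 5.45 in unstimulated WT replicate 1, beside 5.75 and 5.72. Mpc2 had 6.20 log2 CPM in WT LPS replicate 1, beside 7.19 and 6.77, 4.97 in unstimulated D316Y replicate 1, beside 5.97 and 6.40, and 5.33 in unstimulated WT replicate 1, beside 6.13 and 5.98. These were the lowest values of their groups, and what sets the 3 libraries apart was not tested.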
